A study of Mus musculus with 6 samples.

Results

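The 10 genes described here encode alpha and beta tubulins of the mouse: Tuba1a, Tuba1b, Tuba1c, Tuba4a and Tuba8 on the alpha side, and Tubb2a, Tubb2b, Tubb4b, Tubb5 and Tubb6 on the beta side. They were chosen by symbol from a table of 25102 genes, and each of the 10 had a single row. Their levels were measured by poly(A) RNA-seq of liver in 6 male C57BL/6J mice, in 3 libraries of a group that had diethylnitrosamine plus carbon tetrachloride (DEN+CCl4) and 3 of a control group. Mice of the DEN+CCl4 group were 2 weeks old at a single intraperitoneal dose of 1 mg/kg of DEN, a carcinogen that hepatocytes activate, and from about 6 weeks later had CCl4, a hepatocyte toxin, at 0.2 mL/kg 2 times a week for up to 14 weeks. The labels call the result a model of hepatocellular carcinoma; they do not say what the controls were injected with, whether tumour or surrounding liver was taken, or the age at sampling. Libraries carry a replicate number (here livers 1, 2 and 3 of a group) and no animal name, so p-values measure the spread between these libraries.

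Alpha and beta tubulin pair into the dimer from which microtubules are built, and each is encoded by several genes, the isotypes, whose products differ mostly at the acidic C-terminal tail. In hepatocytes microtubules carry vesicles of secreted proteins and bile transporters, position organelles and form the spindle at division. Free dimers feed back on tubulin mRNA: when they accumulate, TTC5 recognises the nascent tubulin chain and its mRNA is degraded. Tuba1a and Tubb2b are abundant in developing neurons, Tuba1b, Tuba1c, Tubb4b and Tubb5 are widely expressed, and Tubb6 is known for a rise in injured and regenerating muscle.

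Several of these genes are so alike that short reads can fit more than one of them. In the GENCODE M21 annotation (GRCm38), the coding sequences of Tubb2a (chr13:34074274-34078007, minus strand) and Tubb2b (chr13:34126748-34130466, minus strand), neighbours 48740 bases apart, were identical at 96.5% of 1338 positions. Their last 150 coding bases, positions 1189 to 1338, include those of the tail, where isotypes mostly differ. They are shown because the main result concerns this pair, and the capitals mark the 3 bases that differ, of 47 in the whole coding sequence. Read in frame, these 3 bases leave the encoded amino acids unchanged, so the tail does not tell this pair apart.
Tubb2a: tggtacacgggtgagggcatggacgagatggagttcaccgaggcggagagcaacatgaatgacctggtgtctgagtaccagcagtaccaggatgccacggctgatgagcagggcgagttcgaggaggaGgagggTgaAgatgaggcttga
Tubb2b: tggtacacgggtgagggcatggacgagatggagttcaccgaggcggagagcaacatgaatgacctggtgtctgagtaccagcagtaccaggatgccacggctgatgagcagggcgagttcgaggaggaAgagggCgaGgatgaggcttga
Of all 31-base words in Tubb2b transcripts, 35.2% also occurred in Tubb2a, and of those in Tubb2a 51.1% occurred in Tubb2b. The other close set was Tuba1a, Tuba1b and Tuba1c, which lie within 106686 bases of chromosome 15 and were 97.1% to 98.3% identical over coding bases; 77.0%, 68.9% and 55.3% of their words occurred in some other gene. Tubb4b shared 48.6% of its words, mostly with its pseudogene Tubb4b-ps1. Tuba4a, Tuba8, Tubb5 and Tubb6 shared 1.93% to 3.47%, and all remaining pairs within the alpha or the beta genes were 79.2% to 85.3% identical. Levels of the Tuba1 genes, of Tubb2a and Tubb2b, and of Tubb4b are therefore uncertain as a split between near-identical copies, in a table whose handling of such reads is not given in the sources used here.

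Values are FPKM, the authors' fragments per kilobase of gene, scaled to a fixed number of mapped fragments, so levels of different genes can be compared per length. Since FPKM divides by a library's total, a library dominated by a few genes shows low values for the rest. DEN+CCl4 replicate 3 stood apart: mitochondrially encoded transcripts took 64.2% of its FPKM, against 26.6% to 43.0% in the other 5 libraries. How far this lowered its other values was not tested. Its median tested gene stood at 1.19 FPKM against 3.43 to 4.46, and it had 16447 genes above 0 against 19260 to 20634. Test results are therefore given as deposited and, for the tubulins and for most lists, also after median-ratio scaling; FPKM values are as deposited unless called scaled. This scaling divides a library by its median ratio to the gene-wise geometric mean (0.356 for DEN+CCl4 replicate 3 and 1.16 to 1.37 for the others). The 8 hepatocyte markers summed to 12680 to 64950 FPKM in the DEN+CCl4 group and 30420 to 48040 FPKM in the control group, mostly through Alb and Apoa1. Their median log2 difference was -0.98 as deposited and -0.51 after scaling, with 1 of 8 positive as deposited and 4 after scaling. Cyp2e1, the enzyme that activates CCl4, was the 1 called lower (limma adjusted p = 0.00885, and 0.454 after scaling), at 803.5, 102.9 and 2.39 FPKM in DEN+CCl4 and 1885, 755.2 and 2239 FPKM in control livers 1, 2 and 3. As deposited, Tat and Cps1 were also lowest in DEN+CCl4 replicate 3, at 21.95 and 12.9 FPKM. Control livers had at least 660.1 and 119.5 FPKM. The markers Alb, Apoa1, Serpina1a and Ttr were lowest in that library too, while Apob was lowest in control replicate 3. After scaling, Cyp2e1, Tat and Ttr were still lowest in DEN+CCl4 replicate 3. Scaled Cps1 was lowest in DEN+CCl4 replicate 2, and scaled Alb was highest in replicate 3. In liver tissue, fewer cells of a type and less RNA per cell cannot be told apart.

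Tubb2b was the 1 tubulin that passed the test, as a rise in FPKM as deposited. Of the 10 genes, all of which passed the filter of a mean of 1 FPKM, 1 was called higher in DEN+CCl4 livers and 0 lower by limma at an adjusted p under 0.05; over all 8528 tested genes 0.833% were called higher and 0.645% lower. Tubb2b passed that filter only through the DEN+CCl4 libraries. Its limma adjusted p was 0.875 with no filter, and 0.795 with the filter but without limma's trend. After median-ratio scaling 0 of the 10 genes were called (2 at an unadjusted p under 0.05, against 5.49% of all tested genes higher), and 0 of all tested genes were.

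Tubb2b, a beta tubulin typical of developing neurons, had 0.73, 7.10 and 2.05 FPKM in DEN+CCl4 livers 1, 2 and 3, and was listed at 0 in all 3 control libraries. All treated livers lay above all controls, with replicate 1 the lowest and replicate 2 the highest of them. The difference was 1.81 ± 0.39 (SE) on the log2(FPKM + 1) scale (limma adjusted p = 0.00174; exact two-sided permutation p = 0.1, the smallest that 3 against 3 libraries can give), and its size depends on the pseudocount because the controls are at 0. After median-ratio scaling it was 2.01 ± 0.52 (limma adjusted p = 0.454). Without DEN+CCl4 replicate 3 the limma adjusted p was 0.608, and without a control replicate it was 0.0842 to 0.184, while it stayed under 0.05 without DEN+CCl4 replicate 1 (1.85e-05) or replicate 2 (0.00531).

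Tubb2a, its near-identical neighbour and a major beta tubulin of many adult cells, showed the widest spread of the 10 genes. It had 4.85, 48.8 and 13.1 FPKM in DEN+CCl4 livers 1, 2 and 3, against 4.97, 7.13 and 7.02 FPKM in control livers 1, 2 and 3. Replicate 2 had the highest value of any tubulin in any library, replicate 3 was above the controls by less, and replicate 1 lay below all of them, so the groups overlapped. The means were 22.3 ± 23.4 FPKM in DEN+CCl4 and 6.37 ± 1.22 FPKM in control livers (SD, n = 3 each), a log2 difference of 1.13 ± 0.74 (limma adjusted p = 0.881) as deposited and 1.58 ± 0.76 (limma adjusted p = 0.5004) after scaling. With DEN+CCl4 replicate 1 left out after scaling, Tubb2a was 2.55 higher on the log2 scale (limma adjusted p = 0.00793), a setting that called 292 of 8528 genes higher. With that library left out as deposited, Tubb2a was 1.86 higher (limma adjusted p = 0.243). Whether it passes thus depends on both that library and the scaling.

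Within DEN+CCl4 livers Tubb2b kept a nearly fixed proportion to Tubb2a. The ratio of their FPKM was 0.151, 0.145 and 0.156 in DEN+CCl4 livers 1, 2 and 3, while Tubb2a ranged over 4.85 to 48.8 FPKM. In control livers the ratio was 0, with Tubb2a at 4.97 to 7.13 FPKM, levels at or above that of DEN+CCl4 replicate 1. Sharing of reads between the genes was not tested. When their FPKM were summed into 1 value per library, an alternative chosen after the data were seen, the sum was 1.32 ± 0.75 higher on the log2 scale (limma adjusted p = 0.772), and 1.77 ± 0.77 after scaling (limma adjusted p = 0.467).

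Tubb6, a beta tubulin with a divergent tail that is known to make microtubules less stable, came next. It had 3.83, 9.98 and 4.01 FPKM in DEN+CCl4 livers 1, 2 and 3, against 2.32, 1.93 and 3.14 FPKM in control livers 1, 2 and 3. Every treated liver lay above every control, as deposited and after scaling. The mean was 5.94 ± 3.5 FPKM in DEN+CCl4 and 2.46 ± 0.62 FPKM in control livers (SD, n = 3 each), with a log2 difference of 0.91 ± 0.57 (limma adjusted p = 0.862; exact permutation p = 0.1) and, after scaling, of 1.29 ± 0.41 (limma adjusted p = 0.454). Tubb6 did not pass the test, except in scaled values with DEN+CCl4 replicate 1 left out (1.71 higher on the log2 scale, limma adjusted p = 0.0213).

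**Figure D1:**
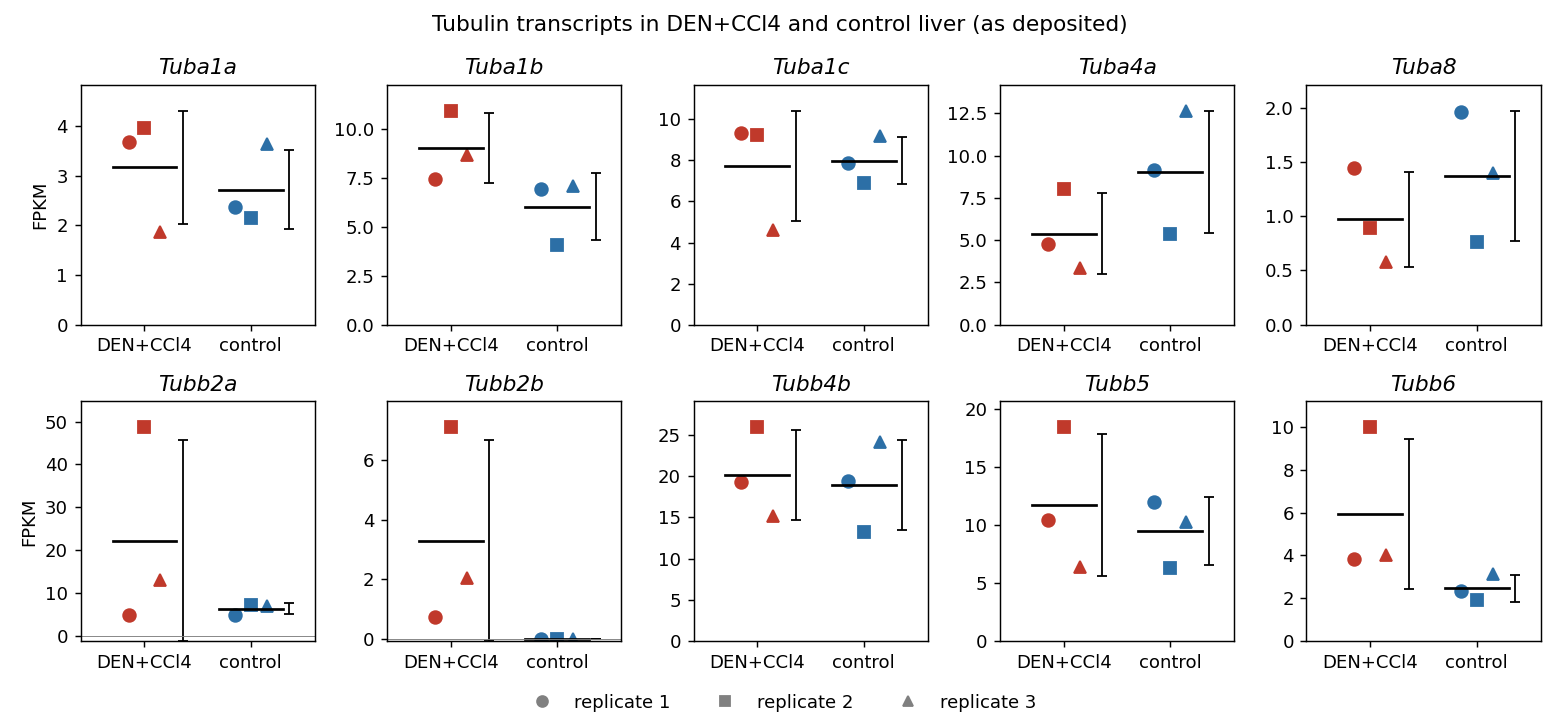
FPKM as deposited of the 10 tubulin genes (vertical axes, a scale of its own for each gene) in DEN+CCl4 livers on the left and control livers on the right of each panel; points are libraries, horizontal bars means and whiskers 1 SD (n = 3 each). Tubb2b lies at 0 in all 3 controls, and Tubb2a spans 4.85 to 48.8 FPKM among the DEN+CCl4 livers.

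Tubb4b and Tubb5, widely expressed beta tubulins, had the highest means of their class in control livers. Tubb4b had 19.3, 25.9 and 15.2 FPKM in DEN+CCl4 livers 1, 2 and 3, against 19.3, 13.2 and 24.2 FPKM in control livers 1, 2 and 3. Tubb5 had 10.5, 18.5 and 6.40 FPKM in DEN+CCl4 livers 1, 2 and 3, against 12.01, 6.30 and 10.3 FPKM in control livers 1, 2 and 3. For both genes replicate 2 was the highest treated liver and the lowest control, and the groups overlapped. The log2 differences were 0.09 ± 0.83 for Tubb4b (limma adjusted p = 0.998) and 0.21 ± 0.73 for Tubb5 (limma adjusted p = 0.996), and after scaling 0.55 ± 0.45 and 0.64 ± 0.38, so that neither a fall nor a rise of about the SE can be told from no change.

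Among the alpha tubulins, Tuba1b stood higher and Tuba4a lower on average in DEN+CCl4 livers, and neither passed the test. Tuba1b, an isotype expressed in most cells, had 7.45, 10.95 and 8.69 FPKM in DEN+CCl4 livers 1, 2 and 3, against 6.92, 4.07 and 7.12 FPKM in control livers 1, 2 and 3. As deposited its groups did not overlap, with replicate 1 just above the highest control; after scaling replicate 1 lay among the controls. The log2 difference was 0.53 ± 0.68 (limma adjusted p = 0.996) as deposited and 0.97 ± 0.50 (limma adjusted p = 0.525) after scaling. Tuba4a, an isotype that is made without a C-terminal tyrosine and is plentiful in muscle, neurons and platelets, had 4.76, 8.02 and 3.38 FPKM in DEN+CCl4 livers 1, 2 and 3, against 9.13, 5.35 and 12.6 FPKM in control livers 1, 2 and 3. Its treated livers were mostly lower and the groups overlapped, with a log2 difference of -0.65 ± 0.67 (limma adjusted p = 0.996) and of -0.23 ± 0.40 after scaling (limma adjusted p = 0.853). Tuba4a overlaps Stk16 on the opposite strand over 1379 bases, and reads of the 2 genes cannot be told apart where strand is not given. The same holds for Tuba8 with Gm15856 (2462 bases), Tuba1b with Gm41396 (241 bases) and Tubb4b with Fam166a (121 bases), and Gm49450 overlaps Tuba1a and Tuba1b on the same strand over 3715 and 2429 bases.

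The 3 other alpha tubulins had overlapping groups under both scalings. Tuba1c, a widely expressed isotype, had 9.33, 9.23 and 4.62 FPKM in DEN+CCl4 livers 1, 2 and 3, against 7.88, 6.91 and 9.18 FPKM in control livers 1, 2 and 3. Its log2 difference changed sign with the scale, from -0.09 ± 0.69 as deposited to 0.33 ± 0.32 after scaling. Tuba1a, the main isotype of young neurons, averaged 3.17 ± 1.14 FPKM in DEN+CCl4 and 2.72 ± 0.80 FPKM in control livers (SD, n = 3 each). Tuba8, a divergent isotype of muscle and testis, averaged 0.97 ± 0.44 FPKM in DEN+CCl4 and 1.37 ± 0.60 FPKM in control livers (SD, n = 3 each). Tuba8 was the lowest of the alpha members in every library. The log2 differences were 0.14 ± 0.53 for Tuba1a and -0.26 ± 0.40 for Tuba8 as deposited, and 0.49 ± 0.28 and -0.0082 ± 0.27 after scaling.

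Over the 10 genes the middle of the distribution lay above that of all genes under both scalings. The median log2 difference was 0.17 over the tubulins and -0.27 over all tested genes as deposited, and 0.60 and 0.01 after median-ratio scaling. The difference was positive in 7 of the 10 tubulins as deposited, where 25.6% of all tested genes were positive, and in 8 of 10 after scaling, where 51.4% were. As deposited, 4 were positive with a median of -0.05 without DEN+CCl4 replicate 2, and 5 with a median of -0.0022 without control replicate 2. The medians of all tested genes in the same settings were -0.50 and -0.27, also below those of the tubulins. All treated values lay above all control values for 3 tubulins as deposited (Tuba1b, Tubb2b and Tubb6), against 3.01% of all tested genes, and for 2 after scaling (Tubb2b and Tubb6), against 7.63%. None of the 10 lay below all controls under either scaling, against 5.35% and 6.52% of all tested genes. These are counts over genes of the same 6 livers and carry no test of the family as a whole.

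**Figure D2:**
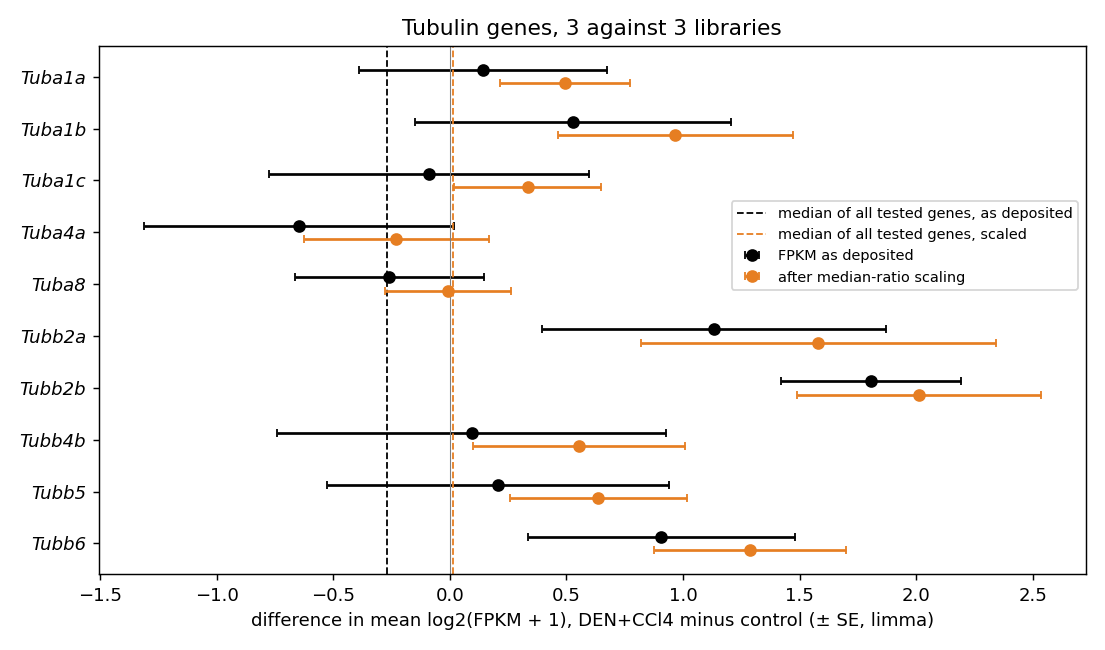
Difference in mean log2(FPKM + 1), DEN+CCl4 minus control, of the 10 tubulin genes with its limma SE (n = 3 libraries each), as deposited (black) and after median-ratio scaling (orange); dashed lines are the medians of all tested genes, -0.27 and 0.01. Tubb2b (1.81 and 2.01), Tubb2a (1.13 and 1.58) and Tubb6 (0.91 and 1.29) lie farthest to the right.

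The treated livers differed from each other for several of these genes. After scaling, Tubb2a deviated from the control mean by -0.39, 2.54 and 2.59 on the log2 scale in DEN+CCl4 livers 1, 2 and 3. Tubb2b deviated by 0.65, 2.63 and 2.76, and Tubb6 by 0.40, 1.45 and 2.02, in the same order. Replicate 1 was thus the closest to the controls for all 3 genes, and replicate 3, in which mitochondrial transcripts dominate, was the farthest only after scaling. Tuba1b deviated by 0.21, 0.60 and 2.10, so that its scaled difference lay mostly in replicate 3. What the mitochondrial share of that library has to do with these values was not tested.

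**Figure D3:**
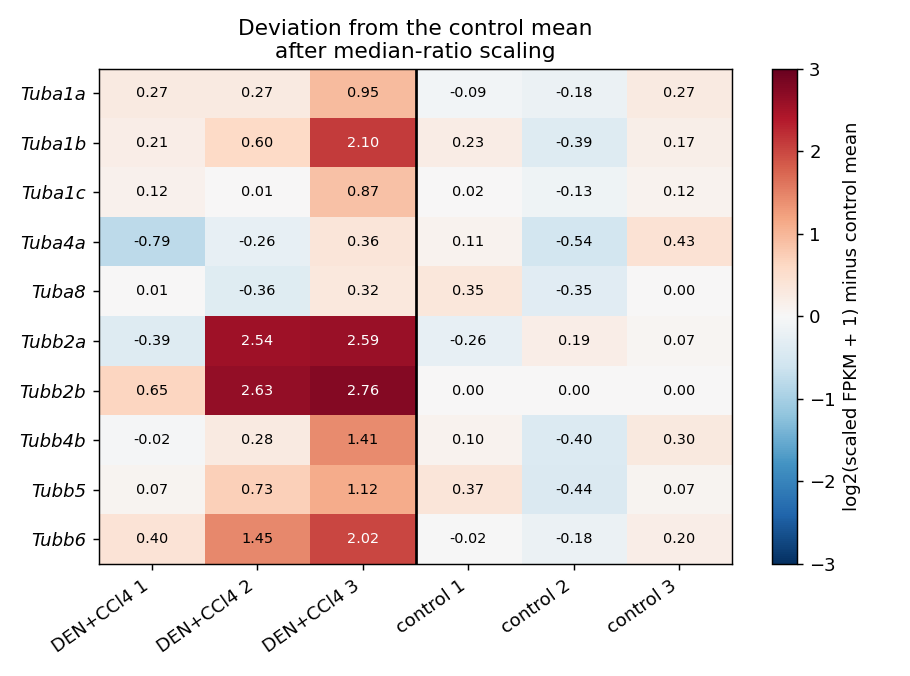
Deviation of each tubulin gene (down) in each library (across) from the control mean, in log2(scaled FPKM + 1) after median-ratio scaling; red is above and blue below the control mean. DEN+CCl4 replicate 1 stands near the controls for most genes, at -0.39 for Tubb2a, while replicates 2 and 3 reach 2.54 and 2.59.

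The isotype make-up of each liver does not depend on the library's total, since every gene is set against the sum of its own class. Among the alpha tubulins, Tuba1b took 27.9%, 33.1% and 45.4% of the summed FPKM in DEN+CCl4 livers 1, 2 and 3, against 24.5%, 21.2% and 20.97% in control livers 1, 2 and 3. Tuba4a took 17.9%, 24.3% and 17.7% in DEN+CCl4 livers 1, 2 and 3, against 32.3%, 27.8% and 37.1% in control livers 1, 2 and 3. Neither pair of groups overlapped, with Tuba1b higher and Tuba4a lower as a share of the listed FPKM in all treated livers than in any control. Both shares carry the uncertainty of near-identical copies (Tuba1b) and of overlap with Stk16 (Tuba4a). The mean share of Tuba1b was 35.5 ± 8.98% in DEN+CCl4 and 22.2 ± 1.98% in control livers, and that of Tuba4a 19.9 ± 3.76% in DEN+CCl4 and 32.4 ± 4.67% in control livers (SD, n = 3 each). Each difference had the smallest exact permutation p that the design allows, 0.1, and 0.25 after adjustment over the 10 isotype shares, so neither passed. Tuba1a, Tuba1c and Tuba8 had overlapping shares.

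Among the beta tubulins, Tubb6 took a larger share in every treated liver than in any control. It was 9.78%, 9.05% and 9.84% in DEN+CCl4 livers 1, 2 and 3, against 6.01%, 6.75% and 7.04% in control livers 1, 2 and 3. The gap between the groups, at 9.56 ± 0.44% in DEN+CCl4 and 6.60 ± 0.53% in control livers (SD, n = 3 each), was several times the SD of either group, with an exact permutation p of 0.1 (0.25 after adjustment over the 10 shares). Tubb2b made up 1.86%, 6.44% and 5.03% in DEN+CCl4 livers 1, 2 and 3 and 0% in the controls, with the same p-values. Tubb2a took 12.4%, 44.3% and 32.2% in DEN+CCl4 livers 1, 2 and 3, against 12.9%, 24.9% and 15.7% in control livers 1, 2 and 3, and the groups overlapped (exact permutation p = 0.4). Tubb4b held 36.7 ± 12.9% in DEN+CCl4 and 50.1 ± 3.92% in control livers (SD, n = 3 each; exact permutation p = 0.2), and Tubb5 19.7 ± 6.06% in DEN+CCl4 and 25.4 ± 4.94% in control livers (exact permutation p = 0.3). Since shares of a class sum to the whole, a larger share of Tubb2a lowers the others.

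**Figure D4:**
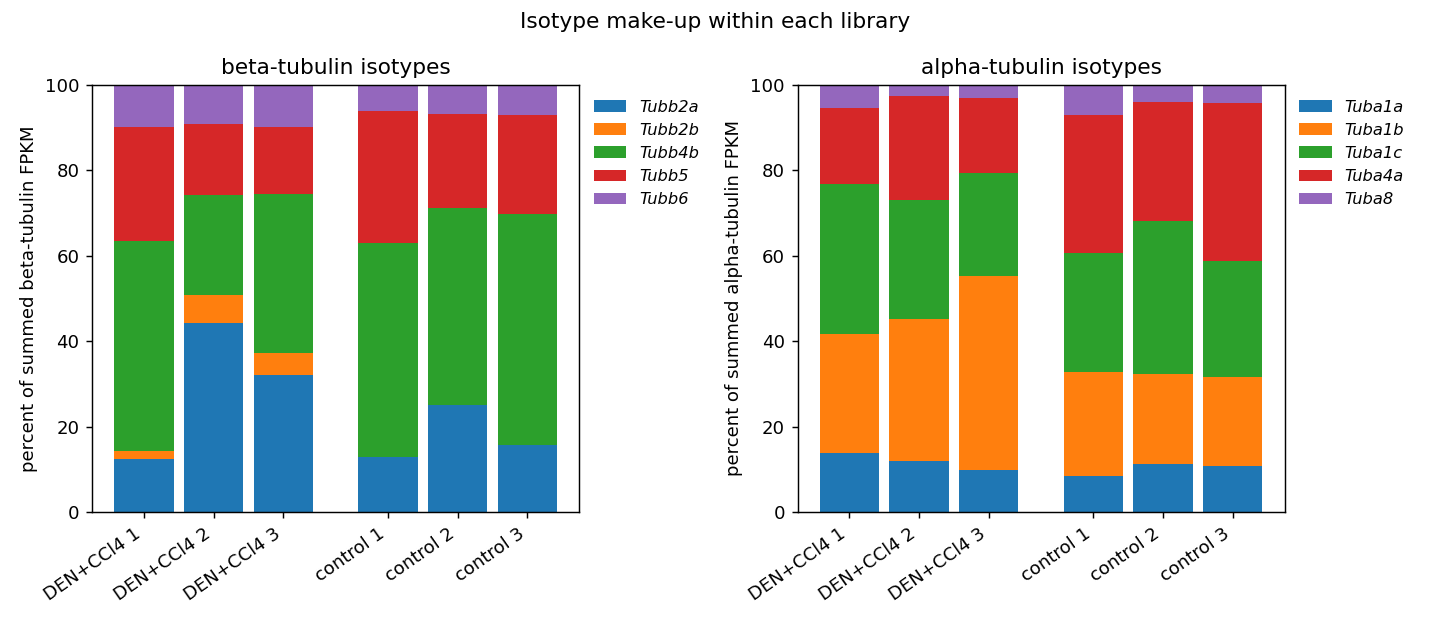
Percent of the summed beta tubulin FPKM (left) and alpha tubulin FPKM (right) that each isotype took in the 3 DEN+CCl4 and the 3 control libraries; each bar sums to 100. Tubb6 takes 9.05% to 9.84% of beta tubulin in DEN+CCl4 livers against 6.01% to 7.04% in controls, and Tuba4a 17.7% to 24.3% of alpha tubulin against 27.8% to 37.1%.

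The sum of the 5 beta genes was 1.47, 3.34 and 2.13 times that of the 5 alpha genes in DEN+CCl4 livers 1, 2 and 3, and 1.37, 1.49 and 1.32 times in control livers 1, 2 and 3. Replicate 1 lay within the range of the controls, and the groups did not differ beyond their spread (exact permutation p = 0.2). With Tubb2a and Tubb2b left out of the beta sum, an alternative chosen after the data were seen, the ratio was 1.26, 1.64 and 1.34 in DEN+CCl4 and 1.191, 1.115 and 1.108 in control livers 1, 2 and 3, without overlap (exact permutation p = 0.1). Summed over all 10 genes as deposited, tubulin stood at 65.8, 143.3 and 59.9 FPKM in DEN+CCl4 and at 66.9, 47.8 and 78.6 FPKM in control livers 1, 2 and 3. After scaling the sum was 51.6, 104.5 and 168.1 in DEN+CCl4 and 57.3, 41.4 and 62.4 in control livers 1, 2 and 3. Replicate 2 alone stood above all controls as deposited and replicates 2 and 3 after scaling, and the groups overlapped both ways (exact permutation p = 0.7 and 0.3).

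The order of the levels showed the same spread. In control livers the mean order ran from Tubb4b through Tubb5, Tuba4a, Tuba1c, Tubb2a, Tuba1b, Tuba1a, Tubb6 and Tuba8 to Tubb2b. There Tubb4b was above Tubb5, Tuba1b above Tuba1a, and Tuba8 above Tubb2b with no overlap between neighbours, and the other neighbours overlapped. In DEN+CCl4 livers the mean order ran from Tubb2a through Tubb4b, Tubb5, Tuba1b, Tuba1c, Tubb6, Tuba4a, Tubb2b and Tuba1a to Tuba8, and Tuba1a against Tuba8 was its only pair of neighbours without overlap. Tubb2a was first in DEN+CCl4 replicate 2, and Tubb4b in the other 5 libraries. The members that moved most alike were Tuba1a and Tuba1c, at a root mean square distance of 0.15 in scaled log2 values centred on the controls over 6 libraries, followed by Tuba1a and Tubb4b at 0.25 and Tubb4b and Tubb5 at 0.27.

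Upstream sequences are shown for Tubb2a, which lay above all controls in 2 of 3 treated livers as deposited, and for Tubb4b, which lay within the range of the controls in 2 of 3. Of the 10 genes 8 had an entry in the RefSeq promoter table (GRCm38.p6), and Tubb2b and Tubb6 had none. The 250 bases before the start of Tubb2a (chr13:34078009-34078258, minus strand) and of Tubb4b (chr2:25224703-25224952, minus strand) are shown 5′ to 3′; the capitals mark the cAMP response element TGACGTCA, the TATA box TATAAA and the CCAAT box CCAAT.
Tubb2a: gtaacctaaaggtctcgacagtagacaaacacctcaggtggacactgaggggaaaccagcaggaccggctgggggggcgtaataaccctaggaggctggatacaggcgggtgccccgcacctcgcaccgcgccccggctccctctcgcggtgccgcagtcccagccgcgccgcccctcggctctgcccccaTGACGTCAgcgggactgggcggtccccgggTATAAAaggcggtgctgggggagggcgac
Tubb4b: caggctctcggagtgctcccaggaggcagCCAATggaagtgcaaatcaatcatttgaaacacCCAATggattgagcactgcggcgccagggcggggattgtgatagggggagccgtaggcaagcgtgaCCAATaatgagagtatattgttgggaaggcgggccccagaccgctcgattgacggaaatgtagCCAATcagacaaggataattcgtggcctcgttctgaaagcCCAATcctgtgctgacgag
Motifs were searched on both strands as exact letters. Among the 8 windows, TGACGTCA and TATAAA were found in Tubb2a alone, 59 and 29 bases before its start, against 1.55% and 12.4% of 32851 windows of this length in the table. CCAAT occurred 5 times before Tubb4b, 2 times before Tubb5 and once each before Tuba1a and Tuba1c, and 33.8% of all windows hold it. The GC box GGGCGG lay before Tuba1a, Tuba1b, Tuba4a, Tubb2a and Tubb4b (32.7% of all windows), and the E-box CACGTG before Tuba8 and Tubb5 (6.02%). No motif found overlaps another in the 2 windows shown, and a match describes the sequence, not binding.

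Among the genes that act on tubulin, the prefoldin, CCT chaperonin and cofactor genes that fold new tubulin had 0 of 17 tested members called in either direction, with a median log2 difference of -0.43 as deposited and -0.04 after scaling, near the medians of all tested genes. Pfdn5, a prefoldin subunit, averaged 35.9 ± 21.2 FPKM in DEN+CCl4 and 49.8 ± 9.98 FPKM in control livers, and Pfdn6, another, 18.6 ± 12.7 FPKM in DEN+CCl4 and 21.4 ± 4.05 FPKM in control livers (SD, n = 3 each). Of the 2 genes of tubulin mRNA autoregulation, Ttc5 averaged 2.74 ± 1.8 FPKM in DEN+CCl4 and 2.79 ± 0.93 FPKM in control livers (limma adjusted p = 0.996), and Scaper, its partner in recruiting the deadenylase, was at most 0.35 FPKM in DEN+CCl4 and 0.36 FPKM in control livers.

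Enzymes that modify tubulin, the gamma-tubulin ring complex that nucleates microtubules and the destabilising and severing proteins had no call among their 5, 6 and 1 tested members. Their median log2 differences were -0.30, -0.38 and -0.35 as deposited and -0.08, -0.16 and -0.03 after scaling. Tpgs1, a subunit of the tubulin polyglutamylase, averaged 8.94 ± 6.02 FPKM in DEN+CCl4 and 11.2 ± 2.94 FPKM in control livers, and Hdac6, a tubulin deacetylase, 3.15 ± 1.68 FPKM in DEN+CCl4 and 4.803 ± 0.57 FPKM in control livers (SD, n = 3 each). Mzt2, a small subunit of the ring complex, averaged 7.09 ± 5.55 FPKM in DEN+CCl4 and 10.5 ± 2.83 FPKM in control livers, and Tubg1, the gamma tubulin at its core, 5.85 ± 3.79 FPKM in DEN+CCl4 and 9.20 ± 3.14 FPKM in control livers. Katna1, the katanin subunit that severs microtubules, averaged 1.47 ± 0.40 FPKM in DEN+CCl4 and 2.12 ± 0.23 FPKM in control livers, without overlap as deposited and with overlap after scaling; Spast, another severing enzyme, was too low to test. Among the 7 tested stabilising and plus-end proteins 0 were called, with a median of -0.0041 as deposited and 0.17 after scaling, and Mapre3, an end-binding protein, and Map7d1, a kinesin-recruiting one, the most abundant of them, had overlapping groups. Treated livers lay above all controls for 1 of the 7 as deposited, Clip2, and for 2 after scaling, with Map1s added. The shares of all tested genes were 3.01% and 7.63%. Clip2 had 0.76, 4.20 and 1.07 FPKM in DEN+CCl4 and 0.42, 0.55 and 0.38 FPKM in control livers 1, 2 and 3. Its limma adjusted p was 0.474 as deposited and 0.454 after scaling. Of the 7 other tubulin genes of the table only Tubg1 was high enough to test (limma adjusted p = 0.996). Tubd1, the delta tubulin of centrioles, stood at 0.24 to 0.92 FPKM in DEN+CCl4 and 0.31 to 0.37 FPKM in control livers, and the beta tubulins Tubb1 of platelets and Tubb3 and Tubb4a of neurons at 0.03 to 0.30 FPKM in DEN+CCl4 and 0 to 0.13 FPKM in control livers.

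Of the 18 tested motor genes 1 was called higher and 0 lower, beside 0.833% and 0.645% of all tested genes. Kif5c, a kinesin heavy chain known from neurons, had 0.08, 4.57 and 1.58 FPKM in DEN+CCl4 livers 1, 2 and 3, against 0.01, 0 and 0 FPKM in control livers 1, 2 and 3. Replicates 2 and 3 carried it, replicate 1 lay near the controls, and the gene passed the filter only through the DEN+CCl4 libraries (limma adjusted p = 0.875 with no filter). The log2 difference was 1.31 ± 0.36 (limma adjusted p = 0.0257), and after scaling 1.54 ± 0.56 (limma adjusted p = 0.454). As deposited, with 1 library other than DEN+CCl4 replicate 1 left out, the limma adjusted p of Kif5c was 0.226 to 0.608. The more abundant Dynlrb1, a dynein light chain, and Klc4, a kinesin light chain, had overlapping groups, with log2 differences of -0.61 ± 0.99 and -1.26 ± 0.87 as deposited and -0.14 ± 0.38 and -0.85 ± 0.43 after scaling. Treated livers lay above all controls for 2 motor genes as deposited, Kif5c and Dynll1, and for 3 after scaling, with Dynlt1b added (3.01% and 7.63% of all tested genes). Dynll1, a dynein light chain, had 3.90, 11.6 and 3.01 FPKM in DEN+CCl4 and 2.53, 1.43 and 1.54 FPKM in control livers 1, 2 and 3, and did not pass the test (limma adjusted p = 0.556, and 0.454 after scaling). The median over the motor genes was -0.23 as deposited and 0.05 after scaling.

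**Figure D5:**
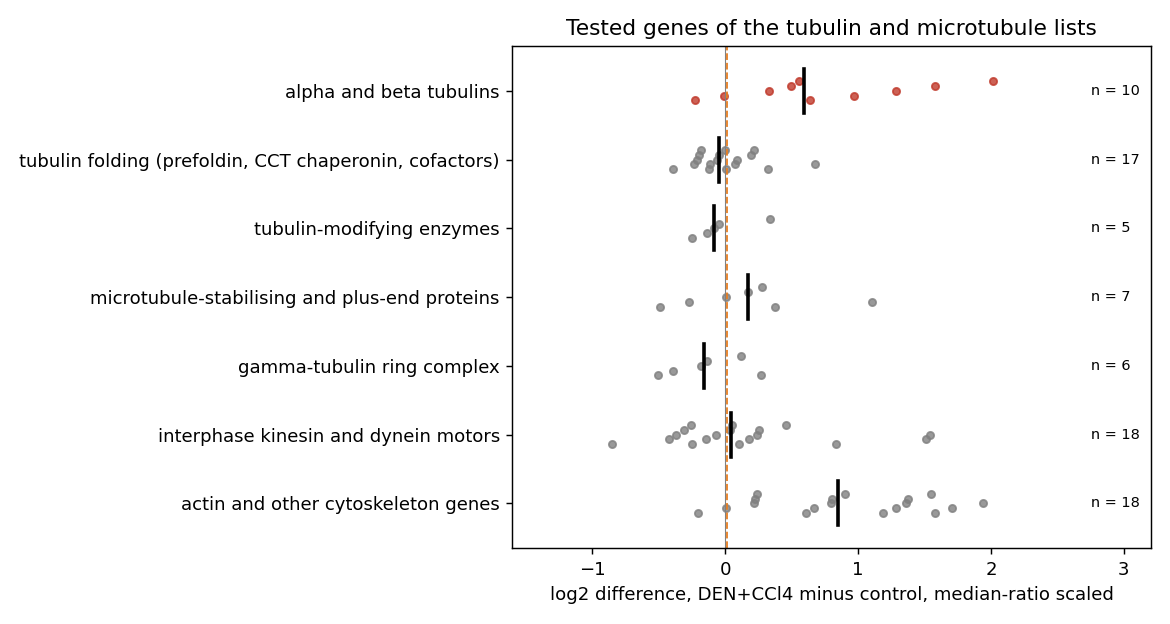
Log2 difference after median-ratio scaling, DEN+CCl4 minus control, of each tested gene (points) in the tubulins and in 6 lists of related genes, with the median of each list (black bar) and of all tested genes (dashed line, 0.01). The tubulin median is 0.60 and that of the actin list 0.85, while those of the folding list (-0.04) and the motor list (0.05) lie near that of all genes.

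Among these lists, that of actin and other cytoskeleton genes had the median farthest above that of all genes. Of 18 tested members 0 were called, 13 were positive as deposited and 17 after scaling, 9 had all treated values above all controls under either scaling (3.01% of all tested genes as deposited and 7.63% after scaling), and the median was 0.45 as deposited and 0.85 after scaling. Actb, the cytoplasmic beta actin, had 136.7, 310.7 and 75.1 FPKM in DEN+CCl4 livers 1, 2 and 3, against 138.0, 118.0 and 132.6 FPKM in control livers 1, 2 and 3, with overlap, and a log2 difference of 0.19 ± 1.04 as deposited and 0.66 ± 0.47 after scaling. Krt18, a keratin of hepatocytes and bile duct cells, averaged 162.7 ± 44.4 FPKM in DEN+CCl4 and 128.3 ± 25.5 FPKM in control livers (SD, n = 3 each). Of the 22 mitotic and proliferation genes only Pcna, the sliding clamp of DNA replication, was high enough to test. It averaged 1.67 ± 0.67 FPKM in DEN+CCl4 and 2.07 ± 0.83 FPKM in control livers (limma adjusted p = 0.996), and Ccnb2, a mitotic cyclin, averaged 0.86 ± 0.33 FPKM in DEN+CCl4 and 0.55 ± 0.20 FPKM in control livers. Of the 22, nearly all too low to test, 6 had all treated livers above all controls as deposited and 9 after scaling, beside 3.01% and 7.63% of the tested genes. Mki67, a marker of cycling cells, had 0.10, 0.21 and 0.31 FPKM in DEN+CCl4 and 0.08, 0.04 and 0.01 FPKM in control livers 1, 2 and 3. Top2a, a topoisomerase of dividing cells, had 0.09, 0.14 and 0.11 FPKM in DEN+CCl4 and 0.01, 0.01 and 0.02 FPKM in control livers 1, 2 and 3, levels at which the depth behind a value is unknown. Other genes of the list had lower means in treated livers. Birc5 averaged 0.40 ± 0.18 FPKM in DEN+CCl4 and 0.57 ± 0.28 FPKM in control livers (SD, n = 3 each). Bub1b averaged 0.07 ± 0.03 FPKM in DEN+CCl4 and 0.17 ± 0.15 FPKM in control livers, and the groups of both genes overlapped.

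Marker sums of some other cells were also higher on average in treated livers, although those of bile duct cells and neutrophils overlapped the controls under both scalings. The 9 stellate cell and fibroblast markers summed to 21.9, 39.4 and 15.6 FPKM in DEN+CCl4 livers 1, 2 and 3, against 13.03, 8.90 and 13.2 FPKM in control livers 1, 2 and 3; 0 of 6 tested were called, 3 had treated livers all above the controls as deposited and 5 after scaling (3.01% and 7.63% of all tested genes), and 0 were at 0 in all libraries. After scaling the sum was 17.1, 28.7 and 43.7 in DEN+CCl4 and 11.2, 7.70 and 10.5 in control livers 1, 2 and 3. Among them Acta2, the smooth muscle actin of activated stellate cells, had 2.87, 10.9 and 3.87 FPKM in DEN+CCl4 livers 1, 2 and 3, against 1.58, 1.44 and 1.08 FPKM in control livers 1, 2 and 3. It was highest in DEN+CCl4 replicate 2 as deposited and in replicate 3 after scaling, as were Tubb2a, Tubb4b, Tubb5, Tubb6 and the hepatocyte marker Alb. Not all stellate cell markers rose. Lrat had 0.31, 0.35 and 0.15 FPKM in DEN+CCl4 and 0.58, 0.46 and 0.40 FPKM in control livers 1, 2 and 3. It was below all controls as deposited and overlapped them after scaling. Dcn overlapped under both scalings, with a log2 difference of 0.02 as deposited. The 8 bile duct markers summed to 14.95, 38.9 and 45.5 FPKM in DEN+CCl4 and to 16.5, 10.8 and 9.28 FPKM in control livers 1, 2 and 3, and 1 of 3 tested was called higher, Tspan8 (limma adjusted p = 0.000212, and 0.475 after scaling), which passed the filter only through the DEN+CCl4 libraries. The defining keratins Krt7 and Krt19 stood at 0.03 to 3.06 FPKM in DEN+CCl4 and at 0.11 to 0.93 FPKM in control livers, and Epcam at 0 to 0.11 FPKM in DEN+CCl4 and at 0.17 to 0.22 FPKM in control livers. Neutrophil markers, 4 of them in the table, summed to 16.03, 5.49 and 22.7 FPKM in DEN+CCl4 and to 5.77, 2.35 and 1.84 FPKM in control livers 1, 2 and 3, and 1 of 2 tested was called higher, S100a8 (limma adjusted p = 0.0336, and 0.462 after scaling), which also passed the filter only through the DEN+CCl4 libraries. The 7 macrophage markers tested, the 4 endothelial, the 5 erythroid, the 2 of B or plasma cells and the 1 of T or NK cells had no call. The macrophage sum was 139.2, 88.2 and 50.4 FPKM in DEN+CCl4 and 193.6, 79.2 and 74.6 FPKM in control livers 1, 2 and 3. Its groups overlapped under both scalings. The T or NK cell sum was 2.97, 4.07 and 4.09 FPKM in DEN+CCl4 and 2.12, 2.13 and 2.10 FPKM in control livers 1, 2 and 3, and the B or plasma cell sum 22.9, 35.6 and 6.52 FPKM in DEN+CCl4 and 9.03, 10.8 and 9.34 FPKM in control livers 1, 2 and 3. The T or NK cell sum lay above all controls under both scalings and the B or plasma cell sum after scaling. The erythroid sum, at 446.6, 2649 and 142.1 FPKM in DEN+CCl4 and 638.7, 236.1 and 364.4 FPKM in control livers 1, 2 and 3, was highest in DEN+CCl4 replicate 2. The neuron and smooth muscle markers summed to at most 1.20 FPKM in DEN+CCl4 and 0.63 FPKM in control livers, with 0 high enough to test. The part of these cells in the tubulin values was not tested.

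By the distance in scaled log2 values over the 6 libraries, the 3 genes most like Tuba1c, the alpha tubulin with the highest mean, were Aimp1, a scaffold of aminoacyl-tRNA synthetases (0.046), Ccny, a membrane cyclin (0.057), and Trappc2l, a part of a vesicle tethering complex (0.063). Those most like Tubb4b, the beta tubulin with the highest mean, were Nus1, of dolichol synthesis (0.117), Gnai3, a G protein subunit (0.130), and Cdc42, a small GTPase of cell polarity (0.134). The genes most like Tubb2b were looked up after its values were seen. Wfdc15b was the closest (0.067), with 0.78, 7.93 and 2.20 FPKM in DEN+CCl4 livers 1, 2 and 3 and listed at 0 in all 3 control libraries, and Ptges, a prostaglandin E synthase, was next (0.096), with 0.80, 6.59 and 1.89 FPKM in DEN+CCl4 and 0.05, 0.05 and 0.08 FPKM in control livers 1, 2 and 3. Gldn (0.141) and Lama5 (0.203), a laminin chain of basement membranes, followed. These 4 genes were highest in DEN+CCl4 replicate 2 as deposited, as was Tubb2b. They were picked for likeness to Tubb2b over the same 6 libraries, so this shared pattern was given by the choice. All 4 passed the filter of a mean of 1 FPKM only through the DEN+CCl4 libraries.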

How the data were processed

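The deposited table holds FPKM per gene, computed by the authors and rounded to 2 decimals, for all 6 libraries. Per the labels' protocols, poly(A) RNA (5 ug of input, RIN above 7) went into SMARTER libraries. HISAT and StringTie with GRCm38 are named per the submitters' processing notes. Versions, annotation, strand and the treatment of multi-mapped reads: not given in the sources used here. No counts were given, and the low values showed no common step worth 1 read (the best step placed 21.8% to 23.6% within 0.1 of whole multiples, where chance gives 20%). The depth is therefore unknown and no counting interval is given.

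The test covered the 8528 of 25102 genes whose mean reached 1 FPKM. They were compared on log2(FPKM + 1) with limma 3.58.1 in R 4.3.3 (two-sided, without covariates, empirical Bayes with trend), with Benjamini-Hochberg adjustment over all of them and a threshold of 0.05. Fold changes on this scale understate the change of low genes. Shares within a class, and single genes beside limma, had an exact two-sided permutation test over libraries. The fit was also run on simulated data, with the spread of the controls in both groups and changes only in genes well above the filter. That run does not cover the wider spread of the DEN+CCl4 libraries or genes near 0 such as Tubb2b. Coordinates, coding sequences and 31-base words came from GENCODE M21, which holds 25051 of the gene identifiers, and upstream sequences from RefSeq, read with Python 3.11.15, numpy 2.4.6, pandas 2.3.3 and scipy 1.17.1; figures used matplotlib 3.10.9.

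The members and lists were chosen with earlier results of these data known. Named were all 10 members, of each list up to 4 called genes, plus the 2 with the highest mean if fewer than 2 were called, and the 3 genes most like the most abundant alpha and beta member. Marker genes, overlapping genes, Dynll1, Dynlt1b, Clip2, Map1s, Mki67, Top2a, Birc5, Bub1b and the genes most like Tubb2b were chosen after their values were seen. The settings varied were the pseudocount (0.1 and 0.01), the filter (none, or 5 FPKM), the scaling (median-ratio, quantile, or a rescaling without the 37 mitochondrially encoded genes), the trend, the replicate number as a block, and each library left out with and without median-ratio scaling. No pair of libraries had identical values.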

Additional observations from a re-analysis of the deposited data

How the results depend on the processing

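The call of Tubb2b, and the counts it belongs to, depended on scale, pseudocount, filter and single libraries. Against 71 genes higher and 55 lower in DEN+CCl4, with 1 tubulin higher, limma called 6 and 3 with a pseudocount of 0.1, 4 and 0 with 0.01, 0 and 0 with no filter, after median-ratio scaling, after quantile normalization and without the trend, and 6 and 3 when rescaled without mitochondrially encoded genes; 0 tubulins were called in each of these. A filter at 5 FPKM, which leaves out Tubb2b, gave 14 higher and 53 lower with 0 tubulins. Beside the 0 after median-ratio scaling stand 468 higher and 446 lower genes with an unadjusted p under 0.05. The cause was not tested. Adjusted p of Tubb2b over the alternatives without a left-out library ran from 0.00148 with the replicate block to 0.919 with a pseudocount of 0.01, and its difference was 4.55 and 7.79 on the log2 scale with pseudocounts of 0.1 and 0.01.

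The log2 difference of Tuba1c, -0.09 as deposited, was 0.33 after median-ratio scaling, 0.081 when rescaled without mitochondrially encoded genes and 0.38 after quantile normalization. With each library left out, with and without median-ratio scaling, 0 to 292 genes were higher, 0 to 364 lower and 0 to 3 tubulins higher; the most came without DEN+CCl4 replicate 1 in scaled values, and as deposited 109 genes were higher and 270 lower without it. Without DEN+CCl4 replicate 3 as deposited 0 genes were called (522 higher and 139 lower with an unadjusted p under 0.05). Over the same settings the log2 difference ran from -0.0028 to 0.62 for Tuba1a, -0.24 to 0.51 for Tuba1c, -0.94 to 0.045 for Tuba4a, -0.46 to 0.18 for Tuba8, -0.13 to 0.84 for Tubb4b and -0.15 to 0.91 for Tubb5, so their signs rest on single libraries, while Tuba1b (0.31 to 1.34), Tubb2a (0.32 to 2.55), Tubb2b (1.20 to 2.63) and Tubb6 (0.52 to 1.71) were above 0 in all of them. The share of Tuba1c differed by -4.24 to 1.56 percentage points. The other 9 isotype shares and the ratio of beta to alpha kept their sign when a library was left out, and the 5 beta shares and the ratio also did so when every beta tubulin gene of the table was summed.

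With the replicate number as a block, limma called 62 genes higher and 32 lower, with Tubb2b among them. Deviations of libraries of the same number had correlations over genes of 0.07, 0.42 and -0.15, and those of different number -0.37 to 0.23. With 3 libraries per group these values cannot decide whether the numbers pair the livers. Depth is unknown, so it cannot be said how few reads the values of Tubb2b and of the other genes near 0 rest on.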
